A study of Mus musculus with 6 samples.

Results

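The subject here is 36 interferon-stimulated genes, chosen by name, in bone marrow progenitors of mice that had all received pI-pC, a synthetic double-stranded RNA that makes the body produce interferon. Of the 36 genes, 33 were represented on the array by at least 1 probe set that carries a single gene symbol, out of 18193 genes measured in all. Isg15, Ifi44 and Oas1g were not analysed here. Where a gene had several such probe sets, the brightest over the 6 arrays stood for it. The genes were picked for their known induction by interferon and not by a threshold on these values. However, earlier results of these data were known when the list was chosen. The counts below therefore describe the list and are not an independent test of it.

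Type I interferon binds the receptor pair IFNAR1 and IFNAR2, and the kinases JAK1 and TYK2 then pass the signal on to STAT2. Together with IRF9, STAT2 is part of a complex that binds the interferon-stimulated response element (ISRE) in the promoters of its target genes. Interferon gamma acts through another receptor and another promoter element, the gamma-activated site (GAS), and it is a strong inducer of the GBP and IRG families of GTPases. In the blood system, pI-pC is the standard trigger for MxCre, a Cre recombinase under the promoter of the interferon-stimulated gene Mx1, and interferon is known to push resting stem cells into division.

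Mice of mixed background, 8 weeks old, carried floxed alleles of c-myc and N-myc, labelled c-myc f2 N-myc f2. The dKO (double knockout) group also carried MxCre, so that pI-pC would delete both genes, whereas the Control group had no MxCre. All mice were treated daily with pI-pC, 2 times, and cells were taken 3 days after the last dose, sorted as Lin- Sca1+ CD150+ CD48+. Each group has 3 arrays, each a pool of 2 Control mice or 3 dKO mice. No group without pI-pC is among the samples, so the arrays show how the groups differ after the treatment, not how far either was induced. MxCre itself, the loss of c-myc and N-myc and the pool size cannot be told apart from one another. Control 1 is labelled as long-term stem cells under tissue, although its gate is that of the other arrays.

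Array medians lay between 5.91 and 5.94 on the log2 scale, and the interquartile range was 3.04 in dKO 3 against 3.33 to 3.47 in the other arrays. Myc, the first target, fell from 10.74 ± 0.24 (SD, n = 3) to 7.77 ± 0.29 (limma, adjusted p = 0.00014), and the brightest Mycn probe set differed by -0.83 ± 0.27 (SE, adjusted p = 0.133). Xist read 9.10 in Control 1 and 10.50 in dKO 1 but between 5.03 and 5.86 in the other arrays, so counts are also given without those 2 pools. Of the gate's genes, the Cd48 mean was 11.23 in Control and 11.43 in dKO and that of Slamf1, which encodes CD150, was 8.31 and 9.10, and neither passed the test. Of 8 measured gate and stem or progenitor genes 1 rose and 1 fell. Gata2 rose (1.34 ± 0.24, limma, adjusted p = 0.0115) and Flt3 fell (-2.73 ± 0.27, adjusted p = 0.000668). With probe sets named _x_at, _s_at or _a_at left out, 0 of them rose. Over all genes 5.97% passed at an adjusted p under 0.05, with 3.12% higher and 2.85% lower in dKO.

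Interferon-stimulated genes were mostly higher in dKO. Of the 33 measured, 12 rose (36.4%, against 3.12% of all genes) and 2 fell (against 2.85%), while 19 did not pass. The risen genes were Isg20, Usp18, Zbp1, Igtp, Ifit1, Ddx58, Iigp1, Rsad2, Dhx58, Gbp2, Ifih1 and Ifitm3, with log2 fold changes from 0.87 to 2.00. The fallen genes were Bst2 and Ifi27l2a. The median over the 33 genes was a log2 fold change of 0.64, beside 0.05 over all genes, and 28 of the 33 values lay above 0, beside 57.6% of all genes. For 20 of the 33 genes the lowest dKO array exceeded the highest Control array, beside 12.7% of all genes, and for 2 the highest dKO array was under the lowest Control array, beside 10.7%. With single arrays left out the number of risen genes ran from 9 to 13, and leaving out Control 1 and dKO 1 together left 6. Those 6 were Isg20, Usp18, Ifit1, Zbp1, Ddx58 and Igtp, whereas Rsad2 (adjusted p = 0.0756), Iigp1 (0.0621), Dhx58 (0.0801), Gbp2 (0.123), Ifih1 (0.161) and Ifitm3 (0.15) no longer passed.

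**Figure D1:**
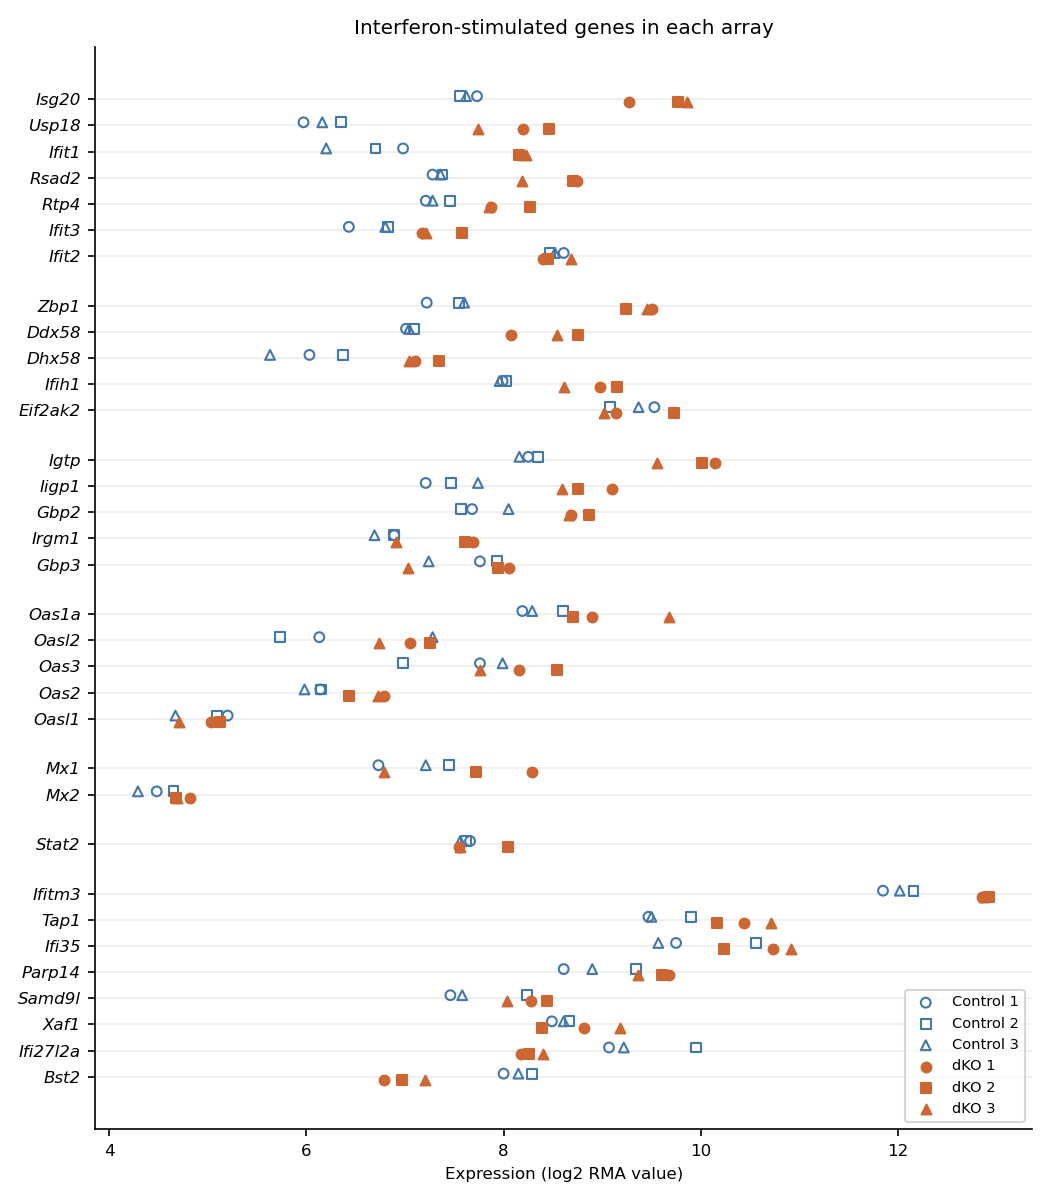
Log2 RMA value of each of the 33 measured genes in each array, grouped by role (from top: early type I genes, sensors, GBP and IRG GTPases, OAS family, MX GTPases, Stat2, membrane and other effectors), with open symbols for Control pools and filled symbols for dKO pools. For 20 genes all filled symbols lie to the right of all open ones, and for Bst2 and Ifi27l2a all lie to the left.

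The promoters show what many of these genes share in sequence. The RefSeq promoter table of build GRCm38.p6 held windows, from 250 bases before to 50 after an annotated start site, for 23 of the 33 measured genes. They were searched on both strands for the core of the ISRE, which is GAAA, any 2 bases and GAAA again, or TTTC, any 2 bases and TTTC where it lies on the opposite strand, and overlapping matches were counted separately. The core was found for 15 of the 23 genes, or 65.2%, beside 3.64% of the genes tested that have a window. It was present for 7 of the 8 risen genes with a window and for 7 of the 14 that did not pass, and also for the fallen gene Bst2. The GAS motif TTCNNNGAA, which reads the same on both strands, was found for 8 of the 23 genes, or 34.8%, beside 8.57% of the genes tested.

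The stretches below, 60 bases each, are shown because genes with like elements stood on different sides of the test. Each is written 5′ to 3′ on the strand of the gene, with the ISRE core in capitals. Ifit1, Rsad2, Igtp and Gbp2 rose, Ifit3, Irgm1, Gbp3, Oas1a and Oas3 did not pass, and Bst2 fell.
Ifit1 (chr19:34640769-34640828, plus strand): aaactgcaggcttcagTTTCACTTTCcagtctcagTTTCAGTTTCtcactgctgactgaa
Rsad2 (chr12:26456538-26456597, minus strand): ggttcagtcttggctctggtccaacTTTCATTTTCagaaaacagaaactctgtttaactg
Igtp (chr11:58199496-58199555, plus strand): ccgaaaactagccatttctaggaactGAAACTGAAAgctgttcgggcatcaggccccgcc
Gbp2 (chr3:142620579-142620638, plus strand): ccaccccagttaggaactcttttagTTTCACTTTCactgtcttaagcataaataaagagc
Ifit3 (chr19:34583365-34583424, plus strand): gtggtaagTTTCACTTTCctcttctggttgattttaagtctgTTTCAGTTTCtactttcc
Irgm1 (chr11:48871421-48871480, minus strand): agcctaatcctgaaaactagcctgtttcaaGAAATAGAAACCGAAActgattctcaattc
Gbp3 (chr3:142559977-142560036, plus strand): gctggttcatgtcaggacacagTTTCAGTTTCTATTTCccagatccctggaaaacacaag
Oas1a (chr5:120907526-120907585, minus strand): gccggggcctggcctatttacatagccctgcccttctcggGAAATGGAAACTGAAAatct
Oas3 (chr5:120777700-120777759, minus strand): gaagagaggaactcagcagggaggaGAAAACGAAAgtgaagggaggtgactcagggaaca
Bst2 (chr8:71537565-71537624, minus strand): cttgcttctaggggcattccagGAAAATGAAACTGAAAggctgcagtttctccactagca

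Ifit1 and Ifit3 each hold 2 separate matches, while in Irgm1, Gbp3, Oas1a and Bst2 2 matches overlap in 1 longer run. These are matches of letters and not tested binding sites, and a window without one says only that the letters are not in it.

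**Figure D2:**
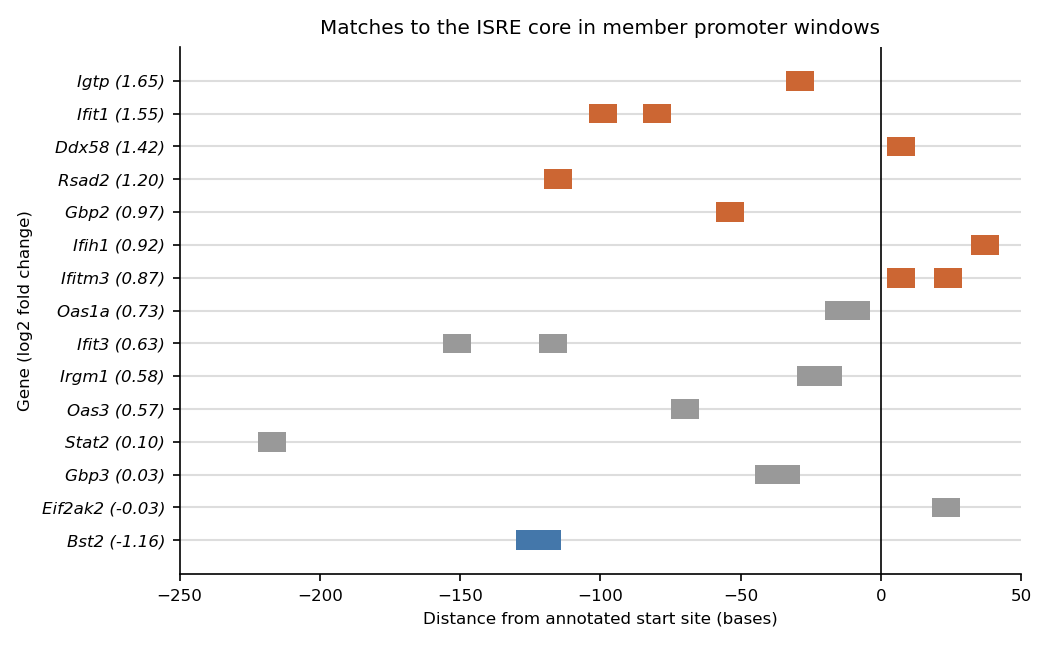
Position of each ISRE core match (blocks 10 bases long) in the promoter windows of the 15 genes that hold one, as distance in bases from the annotated start site, with each gene's log2 fold change in brackets. Orange marks genes that rose, grey those that did not pass and blue Bst2, which fell; matches lie before the start site except in Ddx58, Ifih1, Ifitm3 and Eif2ak2.

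Among the early type I genes, 4 of 7 measured rose and 0 fell. Isg20 encodes an exonuclease that degrades single-stranded RNA. Its level was 7.73, 7.56 and 7.62 in Control 1, 2 and 3 and 9.27, 9.77 and 9.86 in dKO 1, 2 and 3. The groups lay far apart compared with the spread within them, and the gene rose 3.99-fold, by 2.00 ± 0.20 (log2, SE, adjusted p = 0.000712). Usp18 encodes the protease that removes ISG15 from proteins and that also blocks IFNAR2 signalling. It stood at 5.97, 6.35 and 6.16 in Control and at 8.20, 8.46 and 7.74 in dKO. Even the lowest dKO array, dKO 3, was well above the highest Control array, and the rise was 1.97 ± 0.22 (adjusted p = 0.00121).

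Ifit1, whose product binds foreign RNA caps, was at 6.98, 6.70 and 6.20 in Control and at 8.16, 8.16 and 8.23 in dKO. The dKO arrays nearly coincided while Control varied, and the gene rose by 1.55 ± 0.22 (adjusted p = 0.00344). Rsad2 encodes viperin, an enzyme that makes a chain-terminating nucleotide. Its brightest probe set was at 7.28, 7.38 and 7.36 in Control and 8.74, 8.70 and 8.19 in dKO, a rise of 1.20 ± 0.19 (adjusted p = 0.00713). Of its other probe sets 1 passed at 1.42 and the other did not at 0.13, in a test over all 34945 named probe sets, of which 2.24% were higher and 2.2% lower.

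The remaining early genes did not pass. Rtp4, which codes for a receptor transporter, was at 7.21, 7.46 and 7.28 in Control and 7.87, 8.27 and 7.85 in dKO. Ifit3, a partner of IFIT1, was at 6.43, 6.83 and 6.80 in Control and 7.17, 7.58 and 7.21 in dKO. In both, the groups did not overlap, but the differences of 0.68 ± 0.18 and 0.63 ± 0.20 did not pass (adjusted p = 0.0679 and 0.107), nor did the second Rtp4 probe set (0.47). Rtp4 passed with a filter on dim genes (0.0379), quantile scaling (0.0379), loess scaling (0.0388) and array weights (0.0368). Ifit2, of the same family and gene cluster as Ifit1, was between 8.40 and 8.68 in all 6 arrays. Its difference was -0.02 with a 95% interval from -0.40 to 0.35, so its interval and that of Ifit1, from 1.07 to 2.04, lie apart. The difference between the 2 genes was not tested.

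Of the 5 measured sensors of foreign nucleic acid, 4 rose and 0 fell. Zbp1 encodes a sensor of Z-form nucleic acid that can trigger necroptosis. It was at 7.22, 7.55 and 7.60 in Control and 9.51, 9.24 and 9.46 in dKO, and rose 3.85-fold, by 1.94 ± 0.18 (adjusted p = 0.000505). Its second probe set gave 1.95, so both probe sets put the gene at the same difference. Ddx58, which encodes the RNA helicase RIG-I, was at 7.01, 7.09 and 7.04 in Control and 8.08, 8.76 and 8.54 in dKO. The Control arrays lay within a narrow band and dKO 1 was the lowest of its group, and the rise was 1.42 ± 0.20 (adjusted p = 0.00398). Of its other probe sets 1 gave 1.22 and passed, and the dimmest gave 0.40 and did not.

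The related helicases had smaller values. Dhx58, or LGP2, was at 6.03, 6.37 and 5.63 in Control and 7.10, 7.34 and 7.04 in dKO, a rise of 1.15 ± 0.22 (adjusted p = 0.0148). Its other probe sets differed by 0.83 and 0.39 and did not pass. The call was lost without Control 3 (adjusted p = 0.0595) or dKO 2 (0.055) and when its probe sets were averaged (0.0702). It was also lost without probe sets named _x_at, _s_at or _a_at, which drops its brightest one (0.0874). Ifih1 encodes MDA5, the cytosolic receptor for long double-stranded RNA such as pI-pC. It was at 7.99, 8.03 and 7.96 in Control and 8.98, 9.15 and 8.61 in dKO, a rise of 0.92 ± 0.19 (adjusted p = 0.0212). All dKO arrays were above Control, yet the call held only when dKO 3 was left out and was lost without each of the other arrays, with adjusted p up to 0.0867. Eif2ak2, the kinase PKR that halts translation on double-stranded RNA, stood apart from this group. It was at 9.53, 9.08 and 9.37 in Control and 9.14, 9.73 and 9.02 in dKO, with overlapping groups and a difference of -0.03 (95% interval -0.54 to 0.49). Its other probe sets gave 0.31 and 0.35, which did not pass either.

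GTPases of the GBP and IRG families, which attack vacuoles that hold microbes, rose in 3 of 5 cases. Igtp was at 8.25, 8.35 and 8.16 in Control and 10.15, 10.01 and 9.56 in dKO, and rose 3.14-fold, by 1.65 ± 0.20 (adjusted p = 0.00164). Iigp1 was at 7.21, 7.47 and 7.74 in Control and 9.10, 8.76 and 8.59 in dKO, a rise of 1.34 ± 0.21 (adjusted p = 0.00613), and its second probe set gave 1.48. Both genes belong to the IRG family, and in both dKO 1 was the highest array. Gbp2, a guanylate-binding protein gene, was at 7.68, 7.57 and 8.05 in Control and 8.68, 8.87 and 8.66 in dKO. Its second probe set gave 0.78 and did not pass. The brightest rose by 0.97 ± 0.19 (adjusted p = 0.0165), and the call was lost without Control 1 (0.0616), Control 2 (0.0793) or dKO 2 (0.055).

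The other members of these families did not pass. Irgm1, a regulatory IRG gene, was at 6.89, 6.89 and 6.69 in Control and 7.69, 7.61 and 6.91 in dKO. The array dKO 3 barely cleared the Control arrays, and the difference of 0.58 ± 0.23 had an adjusted p of 0.208, or 0.0271 without dKO 3. Gbp3 differed by 0.03 (95% interval -0.64 to 0.70) with overlapping groups. Copies within the GBP, IRG and OAS families are alike in sequence and the probe sequences were not used here, so each is uncertain as a single gene.

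OAS enzymes make the short adenylate chains that activate RNase L. None of the 5 measured OAS genes passed the limma test, and 2 lay under an unadjusted p of 0.05, both higher. Over all genes 18.2% lay under that p, with 9.1% higher and 9.14% lower. Oas1a was at 8.19, 8.60 and 8.29 in Control and 8.90, 8.70 and 9.68 in dKO. The groups did not overlap, but dKO 3 stood well above the other dKO arrays, and the difference was 0.73 ± 0.26 (adjusted p = 0.165). Oas2 was at 6.14, 6.15 and 5.98 in Control and 6.79, 6.43 and 6.73 in dKO, a difference of 0.56 ± 0.17 (adjusted p = 0.11). Oas3 (0.57) and Oasl2 (0.64) had overlapping groups. Oasl1, a relative that lacks the enzyme activity, was at 5.20, 5.09 and 4.67 in Control and 5.03, 5.12 and 4.71 in dKO, nearly the same range, with a difference of -0.04 (95% interval -0.50 to 0.43).

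The MX genes bear on the transgene, since MxCre uses the Mx1 promoter. MX proteins are antiviral GTPases, and many laboratory strains carry a defective Mx1. Neither gene passed the limma test, and 0 lay under an unadjusted p of 0.05, beside 18.2% of all genes. Mx1 was at 6.73, 7.45 and 7.21 in Control and at 8.29, 7.72 and 6.79 in dKO, so dKO 1 and dKO 2 lay above every Control array and dKO 3 within their range. Its difference of 0.47 ± 0.35 had a 95% interval from -0.33 to 1.27. Mx2 was at 4.48, 4.65 and 4.29 in Control and 4.82, 4.68 and 4.69 in dKO, without overlap but with a difference of 0.26 ± 0.17 (adjusted p = 0.515). Stat2, the signalling subunit among the 33 genes, differed by 0.10 (95% interval -0.32 to 0.53).

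**Figure D3:**
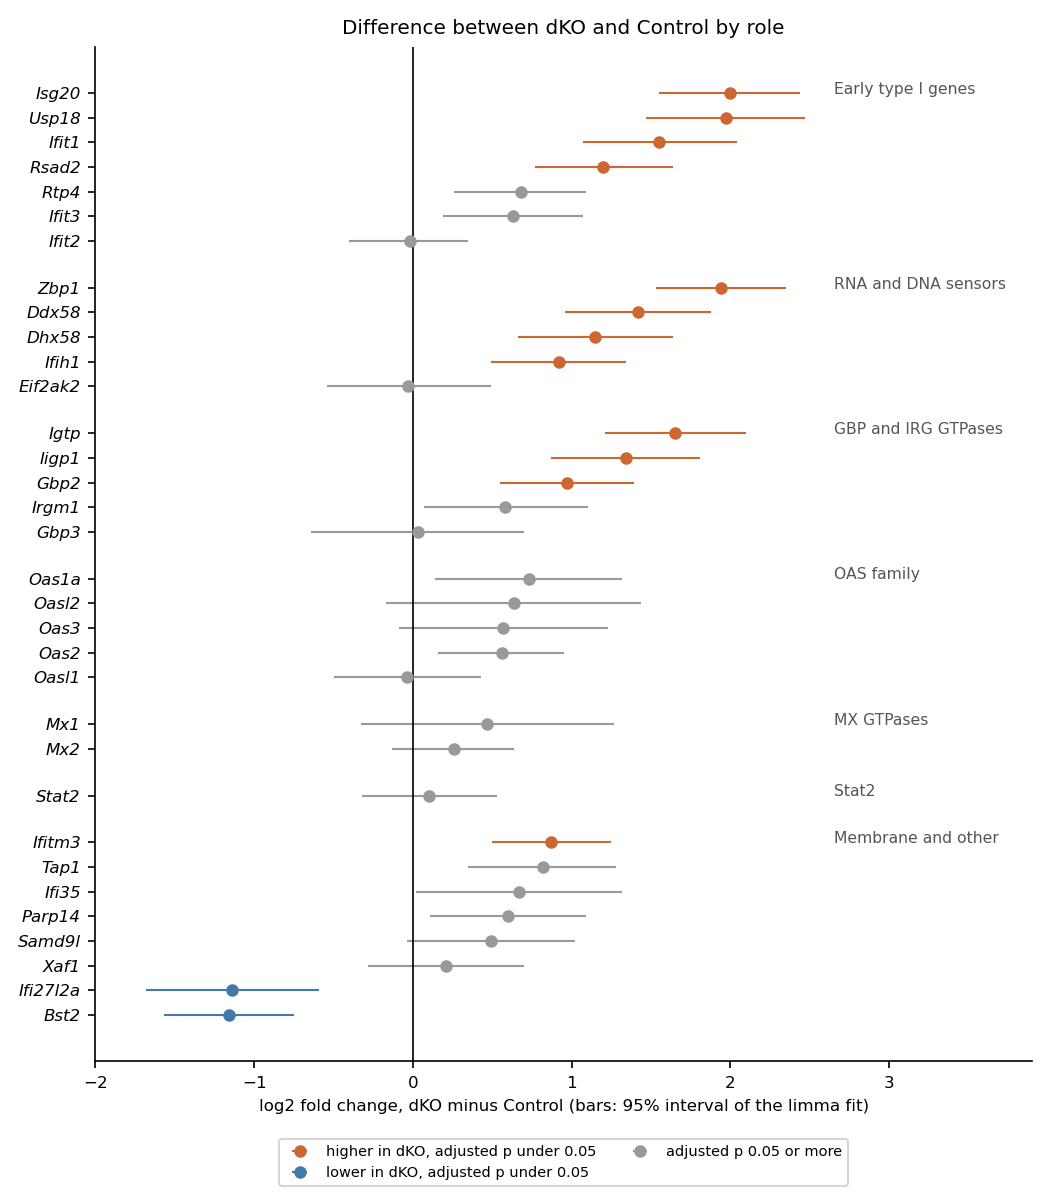
Log2 fold change (dKO minus Control) of each measured gene with its 95% interval from the limma fit, by role. Orange marks the 12 genes that rose, blue the 2 that fell and grey the 19 that did not pass; the early genes, sensors and GTPases hold 11 of the 12.

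Membrane and other effectors were mixed, with 1 of 8 higher and 2 lower. Ifitm3 encodes a membrane protein that keeps viruses from leaving endosomes. It was at 11.85, 12.16 and 12.02 in Control and 12.85, 12.93 and 12.87 in dKO. The dKO arrays lay close together above Control, and the rise was 0.87 ± 0.17 (adjusted p = 0.0152), lost without Control 1 (0.0664) or Control 3 (0.068). Tap1, the peptide transporter of class I presentation, was at 9.47, 9.90 and 9.50 in Control and 10.44, 10.17 and 10.71 in dKO. It lay just outside the threshold, with a difference of 0.82 ± 0.21 (adjusted p = 0.0516), and its dimmer probe sets gave 0.11, 0.21 and 0.15. It passed with a filter on dim genes (0.0276), array medians subtracted (0.0465), trend and robust variance (0.0164) and array weights (0.026). Parp14, an ADP-ribosyltransferase gene, was at 8.61, 9.34 and 8.90 in Control and 9.68, 9.61 and 9.36 in dKO. Its groups nearly touched, at Control 2 and dKO 3, and its difference of 0.60 ± 0.22 did not pass (adjusted p = 0.171), nor did that of its second probe set (0.48). Ifi35 was at 9.75, 10.56 and 9.57 in Control and 10.73, 10.24 and 10.92 in dKO, with overlap and a difference of 0.67 ± 0.29, and its other probe sets gave 0.63 and 0.43. Samd9l (0.49) and Xaf1 (0.21) also overlapped.

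Bst2 and Ifi27l2a went the other way. Bst2 encodes tetherin, which holds budding viruses at the cell surface and is the marker PDCA-1 of mouse plasmacytoid dendritic cells. It was at 8.00, 8.29 and 8.15 in Control and 6.79, 6.97 and 7.20 in dKO. Every dKO array was below every Control array, and the gene fell by 1.16 ± 0.18, or 2.23-fold (adjusted p = 0.00622). Ifi27l2a, whose product lies in membranes of mitochondria or the nucleus, was at 9.07, 9.95 and 9.22 in Control and 8.18, 8.26 and 8.40 in dKO. It fell by 1.14 ± 0.24 (adjusted p = 0.0244), and Control 2 was the farthest from dKO. The call for Bst2 held with each array left out, and that for Ifi27l2a was lost without Control 2 (0.0627), Control 3 (0.055), dKO 1 (0.0819) or dKO 2 (0.0728), which left 1 fallen gene.

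Markers of some other cells also differed between the groups. Over all genes 3.12% were higher and 2.85% lower, the shares to read beside each list of markers. Of 9 measured plasmacytoid dendritic cell markers, a list that holds Bst2 itself, 3 fell and 0 rose. Their mean log2 level was between 8.62 and 8.87 in the Control arrays and between 7.54 and 8.16 in dKO, and the number that fell was 6 without dKO 3. Siglech, a surface receptor of these cells, differed by -0.95 ± 0.25 (adjusted p = 0.0593) and Spib, their transcription factor, fell by 1.94 ± 0.26. Of the 9 values 8 lay under 0, and Ccr9 went the other way at 0.70 ± 0.25 without passing (adjusted p = 0.162). Of 10 monocyte and macrophage markers 6 fell and 0 rose, with a mean level from 8.30 to 8.75 in Control and 6.76 to 6.91 in dKO. RMA values do not reach 0 and carry no detection call, so which markers were absent could not be read. In pooled sorted cells, fewer cells of a type and less RNA per cell cannot be told apart, and the part of these cells in the lower Bst2 and Ifi27l2a was not tested.

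Markers of T and NK cells were mostly higher in dKO. Of 15 measured, 11 rose and 0 fell, beside 3.12% and 2.85% of all genes, and 6 rose without Control 3. Their mean level was 6.48 to 7.04 in Control and 8.09 to 8.37 in dKO. They include Nkg7, a granule membrane gene (1.94 ± 0.18), Ncr1, an activating NK receptor (1.91 ± 0.34), and the transcription factor Eomes (2.36 ± 0.44). Of 8 mast cell and basophil markers 5 rose, with a mean level of 6.30 to 6.48 in Control and 7.98 to 9.03 in dKO. Among the 5 was Gzmb, at 5.54 ± 0.30 the highest value of all genes, which weighs on that mean. It is a granzyme gene like Gzma of the T and NK list, so it is not particular to mast cells and basophils. Of 10 megakaryocyte markers 5 rose, with a mean level of 7.02 to 7.15 and 8.28 to 8.59. Of 11 B cell and lymphoid markers 4 fell (2 without Control 2, Control 3, dKO 1 or dKO 2), and of 6 erythroid markers 2 rose (0 without Control 2, Control 3 or dKO 1, and 1 without dKO 2). None of 11 neutrophil markers passed the limma test, with 6 under an unadjusted p of 0.05, all lower, beside 9.14% of all genes. Of these markers 2 fell without Control 1, 3 without both pools with Xist signal or with Xist as a covariate, and 4 with the replicate block or array weights. A Lin- gate is meant to remove mature cells of the blood lineages, and its antibodies are not listed in the labels. The part of these cells in the risen interferon-stimulated genes was not tested.

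As a median, the 33 genes lay above the Control mean in each dKO array. The median over the 33 genes of each array's distance from the Control mean was 0.73 in dKO 1, 0.79 in dKO 2 and 0.59 in dKO 3. It lay between -0.09 and 0.10 in the Control arrays, which make up that mean and so centre near 0 by construction. Over all genes the same measure was between -0.03 and 0.12 in dKO. For the 12 risen genes it was 1.46, 1.45 and 1.21 in dKO 1, 2 and 3, a description only since these genes were picked by that difference. Within dKO, dKO 3 was the lowest array for 17 of the 33 genes, and within Control, Control 2 was the highest for 21. The median SD within groups was 0.26 for the 33 genes and 0.25 for all genes.

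**Figure D4:**
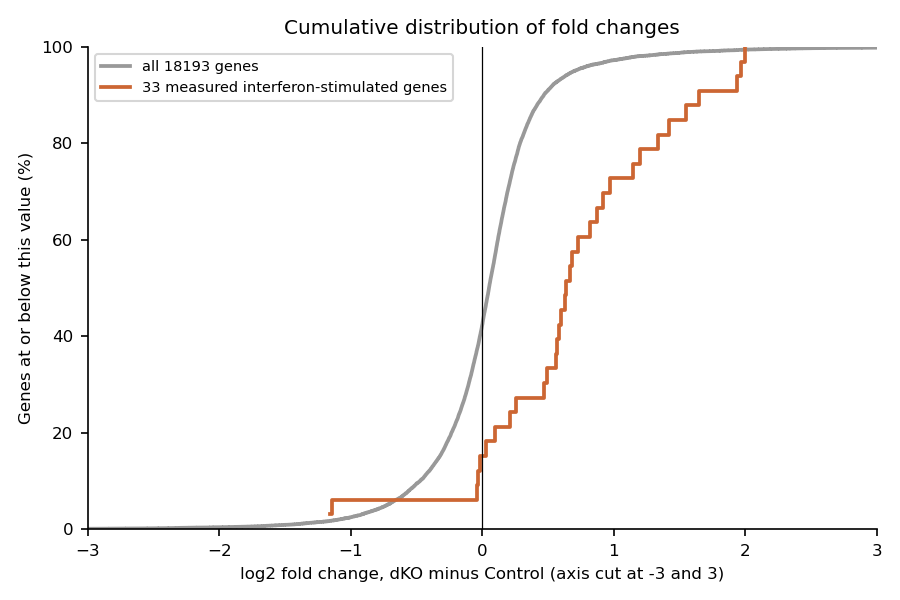
Cumulative share of genes (%) at or below each log2 fold change (dKO minus Control), for the 33 interferon-stimulated genes and for all 18193 genes. The curve of the 33 genes lies to the right of that of all genes over most of its range, with medians of 0.64 and 0.05; it lies to the left at the lower end, where Bst2 and Ifi27l2a sit, and at the upper end, since it reaches 100% at 2.00 (Isg20).

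Other genes of the interferon pathway, from lists that leave out the 36 names, were also read from the start of the pathway to its end. Of 101 distinct genes measured, 14 rose and 5 fell, beside 3.12% and 2.85% of all genes. Without dKO 3 the risen number was 23, and it was 8 when Control 1 and dKO 1 were both left out. Among 9 measured interferon genes 2 rose and 0 fell. Ifng, the interferon gamma gene of T and NK cells, was at 4.09, 4.85 and 3.44 in Control and 6.67, 6.99 and 5.49 in dKO. All dKO arrays were above Control, and the rise was 2.26 ± 0.43 (adjusted p = 0.0156). That call was lost without Control 3 (0.0516), dKO 1 (0.0562), dKO 2 (0.0611) or both pools with Xist signal (0.075). Ifnz, a zeta interferon gene, rose by 0.93 ± 0.20 (adjusted p = 0.024), a call lost with the replicate block (0.0554) and without Control 1 (0.0657), Control 2 (0.0556), Control 3 (0.111) or dKO 1 (0.0553). Ifnb1, the early type I interferon, differed by 0.37 and the alpha interferon genes by -0.04 to 0.57, and none of these passed. The filter on dim genes, which keeps genes above the median level, left 0 of the 9 interferon genes. For such dim genes without a detection call, a lack of difference cannot be told from a lack of signal.

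None of the 6 receptor genes passed the limma test, though 2 lay under an unadjusted p of 0.05, both lower, beside 9.14% of all genes. Ifnar2, a chain of the type I receptor, was at 10.74, 10.88 and 10.89 in Control and 10.30, 10.35 and 10.06 in dKO, a difference of -0.60 ± 0.17 (adjusted p = 0.0738). Ifngr2, a chain of the gamma receptor, differed by -0.84 ± 0.23 (adjusted p = 0.0666). In both, every dKO array lay below every Control array. The number of receptor genes that passed as lower was 2 with a filter on dim genes or with array weights. It was 1 with loess scaling, with trend and robust variance or without Control 1, and 0 without each of the other arrays. Among 5 transduction genes only Stat3, a transcription factor shared with many cytokines, rose, by 0.78 ± 0.17 (adjusted p = 0.028). That call held when dKO 3 was left out but was lost without each of the other arrays (0.055 to 0.125). It was also lost without both pools with Xist signal (0.167), with the replicate block (0.061) and with the mean of its probe sets (0.152).

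Of 7 measured genes listed as negative regulators of interferon signalling 2 rose and 0 fell. Cish was at 5.77, 6.16 and 5.57 in Control and 9.66, 9.38 and 9.77 in dKO, and rose 13.6-fold, by 3.77 ± 0.21 (adjusted p = 2.9e-05). Socs3 rose by 2.42 ± 0.29 (adjusted p = 0.00175). Both restrain JAK and STAT signals, CISH mainly below receptors that use STAT5. Socs1, the inhibitor most tied to interferon, differed by 0.27 ± 0.19 and did not pass.

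In the sensing pathway that leads to interferon, 0 of 11 measured genes rose and 1 fell. Sting1, the adaptor for cytosolic DNA, fell by 0.83 ± 0.19 (adjusted p = 0.0312), a call lost with each array left out (0.0554 to 0.126) and without _x_at, _s_at and _a_at probe sets (0.0583). Tlr3, the endosomal receptor for double-stranded RNA, differed by -0.50 ± 0.23 and did not pass. Of 8 interferon regulatory factor genes 1 rose and 2 fell. Irf8 and Irf4, factors of dendritic, monocytic and B cells, fell by 2.33 ± 0.30 and 1.52 ± 0.21. Irf1, itself induced by interferon gamma, rose by 0.79 ± 0.17 (adjusted p = 0.0294), held only without dKO 3 and lost without each of the other arrays (0.0607 to 0.111) and with the replicate block (0.0588). Irf7 (0.27) and Irf9 (0.24) did not pass.

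Of 13 class I presentation genes 12 had values above 0, by small amounts. None passed the limma test, while 7 lay under an unadjusted p of 0.05, all higher, beside 9.1% of all genes. In 9 the groups did not overlap, all higher, beside 12.7% of all genes. The median was 0.41, with Psmb9, a subunit of the immunoproteasome, at 0.68 ± 0.19 (adjusted p = 0.0715) and Tap2, the partner of TAP1, at 0.51 ± 0.18. Without dKO 3, 2 of them passed, and with trend and robust variance 4.

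Of 48 further interferon-stimulated genes 8 rose and 2 fell, with a median of 0.40, and 14 rose without dKO 3. The risen genes were Cxcl10, a chemokine for T and NK cells (3.71 ± 0.31), Ifitm1, a neighbour of Ifitm3 in its family (2.80 ± 0.16), and Cd274, which encodes the checkpoint ligand PD-L1 (1.81 ± 0.20). They also included the GTPase genes Irgm2 (1.57 ± 0.19) and Gbp6 (1.51 ± 0.23), Slfn2 (1.36 ± 0.24), Tdrd7 (1.16 ± 0.20) and Ube2l6, the conjugating enzyme for ISG15 (0.95 ± 0.16). Without both pools with Xist signal the limma calls were lost for Slfn2 (adjusted p = 0.0503), Tdrd7 (0.104) and Ube2l6 (0.0833). The fallen genes were Ifi30, a lysosomal thiol reductase of antigen-presenting cells (-3.01 ± 0.25), and Ms4a4c, a membrane gene of myeloid cells (-1.52 ± 0.23). Over the 48 genes the groups did not overlap in 23 that were higher and 5 that were lower, beside 12.7% and 10.7% of all genes.

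**Figure D5:**
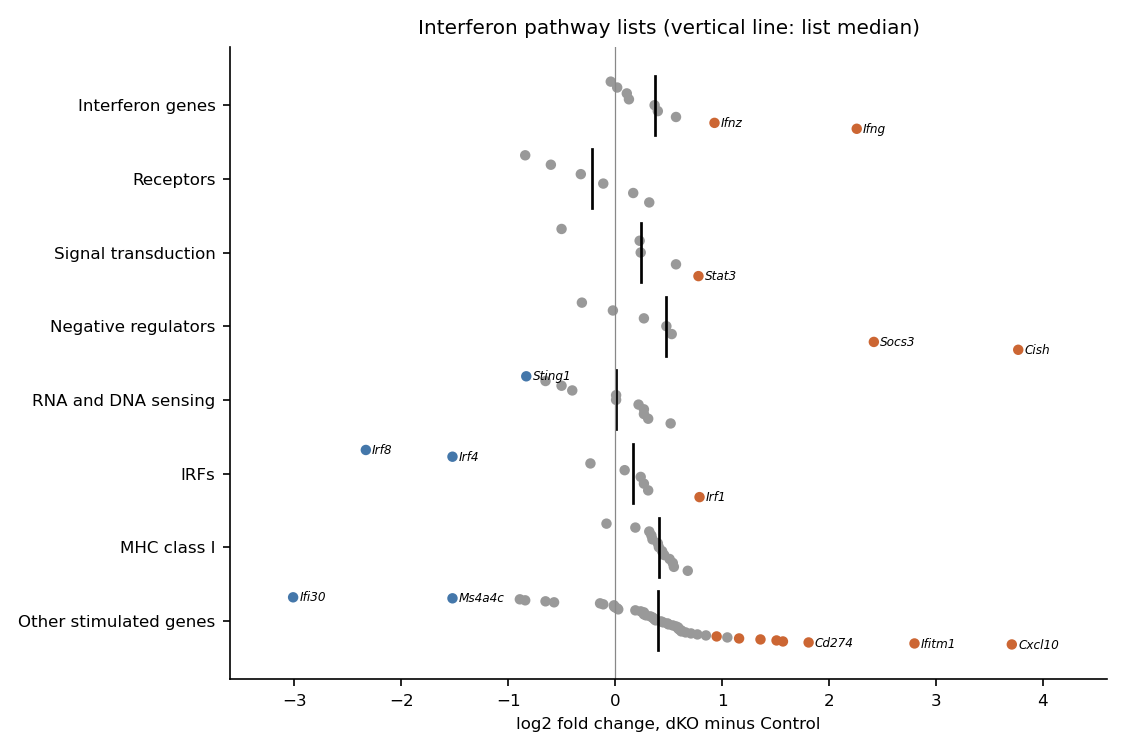
Log2 fold change (dKO minus Control) of each measured gene in 8 lists of the interferon pathway, with the median of each list as a vertical line. Orange points rose and blue points fell, with names except for 5 risen genes between 0.95 and 1.57 in the last list; Cish and Cxcl10 lie farthest to the right and Ifi30 farthest to the left.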

How the data were processed

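Trizol RNA of each pool went through 2 rounds of Nugen amplification and biotin labelling for Affymetrix arrays, per the labels' protocols. The deposited values are log2 and were made with RMA by the authors, per the submitters' processing notes; the sources used here give neither its version nor whether all 6 arrays were processed together. RMA compresses low values, so fold changes of dim genes are understated. Of 45101 probe sets, 34945 carry 1 symbol in the platform annotation, and 34741 of these were matched by gene identifier to RefSeq (GRCm38.p6). The brightest probe set stood for each gene.

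Groups come from the sample titles. The test was limma 3.58.1 in R 4.3.3 (lmFit, eBayes, group only, two-sided), adjusted by Benjamini-Hochberg over 18193 genes with a threshold of 0.05, and checked on simulated data. Errors are the SD over 3 pools or the SE of the fit, and precision is limited by there being 6 arrays. List counts are described beside all genes, with no set test. The genes and lists were chosen with earlier results of these data known. Values per array are given for genes that passed, did not overlap, had the 3 highest or lowest fold changes or were among the 4 brightest, and for Mx1, added because MxCre uses its promoter; pathway genes are named if they passed or, where none did, for the 2 smallest p. Other pathway genes named were chosen after their values were seen. Deviations from the group mean correlated little between same-numbered pools (0.056, 0 and 0.019), beside -0.052 to 0.038 between the others. With 3 pools per group this cannot exclude a pairing, and Xist was high in both Control 1 and dKO 1. Figures used matplotlib 3.10.9.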

Additional observations from a re-analysis of the deposited data

How the results depend on the processing

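Over 13 alternatives and 6 that leave out 1 array each, the 14 genes that passed gave 265 values, of which 240 kept direction and side of the threshold, 25 no longer passed and 0 changed sign. The risen genes numbered 10 to 16 under the alternatives of processing, 9 to 13 with 1 array left out, and 6 without both pools with Xist signal, where 1 gene had fallen. With 1 array left out, 8 of the 12 risen genes passed every time, 1 to 2 genes had fallen and the median log2 fold change was 0.568 to 0.75. The replicate block, which pairs pools by number, gave 12 risen and 2 fallen genes, and 12 risen and 5 fallen in the pathway lists. There the risen genes numbered 24 with array weights, 8 without both pools with Xist signal and 10 to 23 with 1 array left out. The fallen ones numbered 3 without _x_at, _s_at and _a_at probe sets, and 8 with trend and robust variance, with array weights or at an adjusted p of 0.1. Of the 19 genes that did not pass, 4 passed under some alternative: Rtp4 (0.0368 to 0.0388 in 4 settings at the threshold of 0.05), Tap1 (0.0164 to 0.0465 in 4), Irgm1 (0.0291 with array weights, 0.0271 without dKO 3) and Oas2 (0.0427 with array weights). Without both pools with Xist signal Ifi27l2a no longer passed (0.0586). Some values that did not pass changed sign. Without both pools with Xist signal these were Eif2ak2 (0.15), Gbp3 (-0.102), Ifit2 (0.071), Mx1 (-0.073) and Oasl1 (0.029). Eif2ak2 was 0.21 with the mean of its probe sets, Gbp3 -0.018 with Xist as a covariate, Ifit2 0.012 and 0.007 with quantile or loess scaling, and Oasl1 0.07 with array weights. With 1 array left out Eif2ak2 ran from -0.25 to 0.11, Gbp3 from -0.17 to 0.36, Ifit2 from -0.11 to 0.034, Oasl1 from -0.19 to 0.088 and Stat2 from -0.057 to 0.19. The cause was not tested.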
